A study of Mus musculus with 19 samples.

Results

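High endothelial cells (HEC) of mesenteric lymph nodes were compared with HEC of peripheral lymph nodes, gene by gene, on 8 of the 19 expression arrays of the series. The 4 mesenteric arrays were those titled as high endothelial cells of that tissue. Arrays 1 and 2 came from cells sorted as MAdCAM1+/PNAd+ (here the double-positive gate) and arrays 3 and 4 from cells sorted as MAdCAM1+. Both gates were given equal weight. Peripheral HEC arrays 1 to 4 were the comparison, and the labels do not give their sorting gate. Every sample was labelled as RNA of sorted cells from Balb/c mice, an inbred strain, and as an equal mix of male and female adults aged 6 to 8 weeks. No treatment or mutation is recorded for any sample. Of the other arrays, 2 of mesenteric capillary cells, 3 of peripheral capillary cells and 3 of Peyer's patch HEC are used below. Whether the arrays of a group stem from different animals or different sorts is not stated, so the p-values below reflect the spread among these arrays alone, and that spread could be technical.

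High endothelial venules are the postcapillary vessels through which lymphocytes leave the blood and enter lymph nodes and Peyer's patches. In peripheral nodes their cells display peripheral node addressin (PNAd), a set of sulphated and fucosylated sugars on sialomucins that L-selectin on lymphocytes binds. In gut-associated tissue they also carry MAdCAM1, the ligand of the gut-homing integrin of lymphocytes, and mesenteric nodes, which drain the gut, display both. MAdCAM1 was used to sort the mesenteric cells, so the Madcam1 difference describes the sort and is no finding. PNAd was used for arrays 1 and 2, and values of genes that make L-selectin ligands on those arrays may in part reflect the gate.

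The promoter of Madcam1, the gene of the gating antigen, is shown because its regulators were measured beside it. In mice the homeobox factor Nkx2-3 is needed for MAdCAM1 on gut and spleen endothelium, and NF-kB, the factor downstream of cytokine and lymphotoxin receptors, acts through sites in this promoter. The 250 bases before the RefSeq start site (GRCm38.p6, chr10:79664309-79664558, plus strand) were searched on both strands for an NF-kB pattern (GGG and TTCC with 3 bases between them, or the reverse complement, GGAA and CCC with 3 between them), and for AAGTGG or its reverse complement CCACTT, a core bound by Nkx factors. Capitals mark the matches, which start 100 (Nkx core), 83 and 70 (NF-kB) bases before the start site.
Madcam1 promoter: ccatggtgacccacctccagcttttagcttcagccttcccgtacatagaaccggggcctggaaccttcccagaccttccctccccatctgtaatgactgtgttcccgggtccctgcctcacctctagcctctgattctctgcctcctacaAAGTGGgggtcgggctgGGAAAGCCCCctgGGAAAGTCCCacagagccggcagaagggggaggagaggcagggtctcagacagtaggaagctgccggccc
The NF-kB pattern was held by 4.65% and the Nkx core by 14.1% of all 32851 RefSeq promoter windows of the same length. Neither pattern was found in the windows of Nkx2-3 and Chst4. A match describes letters only and shows no binding.

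Values are log2 signals that the authors had centred for each probe set, so only differences between arrays can be read, and neither the level of a gene against another nor its detection is known. The 11 measured markers of HEC averaged 2.95 to 3.21 on mesenteric HEC arrays and 2.95 to 3.11 on peripheral HEC arrays. The same list averaged -0.15 to -0.10 on mesenteric capillary arrays and 0.25 to 1.00 on peripheral capillary arrays. This list includes Madcam1, by which the mesenteric cells were sorted, so its level means may in part reflect the gate. Its median difference between mesenteric and peripheral HEC was -0.21, with 7 of 11 below 0. All HEC arrays stood above all capillary arrays in the list mean. Peripheral capillary arrays 1 and 2 carried more HEC marker signal than array 3, and results that use these 2 arrays are given with and without them. Across all genes the SD of the difference between 2 arrays was 0.196 to 0.264 within peripheral HEC and 0.234 to 0.346 between the tissues. Mesenteric arrays 1 and 3 (SD 0.178) and 2 and 4 (SD 0.193), which are of different gates, lay closest together. Pairs of the same gate had an SD of 0.238 (1 and 2) and 0.247 (3 and 4). The remaining pairs of different gates had 0.277 (1 and 4) and 0.242 (2 and 3). What arrays 1 and 3, or 2 and 4, share is not stated in the labels.

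The Y-linked genes read lower on arrays numbered 1 of the peripheral nodes than on the other peripheral arrays. Every sample was labelled as an equal mix of the sexes, and centred values cannot show the mix of any array. The mean of 4 sex-linked genes was -0.31 to 0.07 on mesenteric HEC arrays, against -1.0, -0.05, 0.11 and 0.20 on peripheral HEC arrays 1 to 4. It was -0.22 and -0.12 on mesenteric capillary arrays and -0.78, -0.08 and -0.22 on peripheral capillary arrays 1 to 3. This mean joins Xist, which females express, with 3 Y-linked genes, so opposite moves can offset each other in it. Xist itself, given further below, set mesenteric HEC arrays 2 and 4 apart from 1 and 3. On peripheral HEC array 1 the Y-linked Eif2s3y, Uty and Kdm5d read -1.99, -1.61 and -1.03, and -0.34 to 0.14 on the other 3 arrays. On peripheral capillary array 1 they read -1.61, -1.65 and -0.87, and -0.45 to -0.03 on the other 2 arrays. Counts without peripheral HEC array 1 or peripheral capillary arrays 1 and 2 are given below, and the part of sex in the results was not tested.

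Of 19938 genes, 537 (2.69%) differed between mesenteric and peripheral HEC at an adjusted p under 0.05, by limma over all 7 groups with Benjamini-Hochberg adjustment over all genes. In mesenteric HEC 144 of them (0.722%) were higher and 393 (1.97%) were lower. Both directions held genes with differences of at least 1 on the log2 scale, 22 higher and 63 lower (0.426% of genes together). The 4 and 4 arrays did not overlap in 497 of the called genes (2.49% of all genes), while 2303 genes (11.6%) had no overlap at all. The median difference over all genes was 0.03. Without mesenteric array 2 the count was 285 and without array 4 it was 324, against 358 to 473 without any other single HEC array (438 without peripheral array 1). Without arrays 2 and 4 together it was 208. Among all calls 73.2% were lower. Called members of the lists below stand against 2.69% of all genes, and the lists were chosen with earlier results of these data known. Among the 8736 genes kept by a filter on each gene's range over the arrays, 518 were called. The 2.69% is thus a low base for genes that vary. Below, a gene is said to be higher or lower only where it passed the test over all 19938 genes. Differences are log2 with the SE of the model.

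The 15 highest and 15 lowest named differences kept their call under each of the 20 alternative settings run for single genes, including the loss of any single HEC array. Madcam1, the gene of the sorting antigen, led the higher genes. It was followed by the heat shock gene Hspa1a, the prostaglandin transporter Slco2a1 and the homeobox gene Meis2. The amino acid exchanger Slc7a6 led the lower ones, followed by the hyaluronan-binding protein Itih5, coagulation factor VIII (F8) and platelet factor 4 (Pf4).

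**Figure D1:**
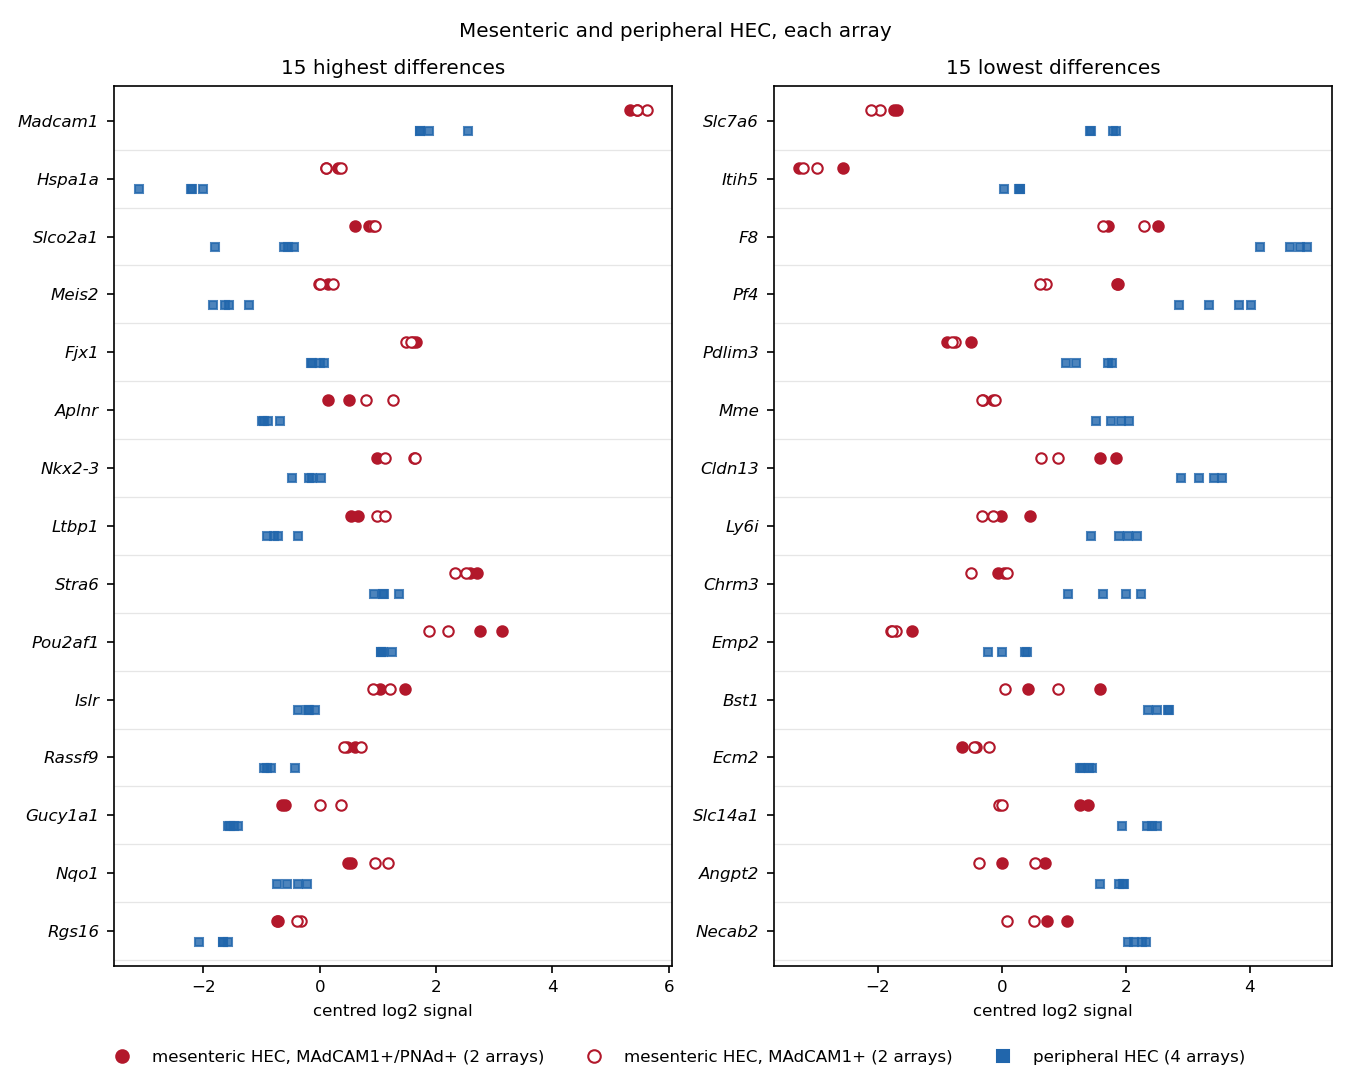
Centred log2 signal (x axis) of the 15 highest (left) and 15 lowest (right) named genes on each HEC array; in each row mesenteric arrays stand above peripheral arrays, filled circles are the double-positive gate, open circles the MAdCAM1+ gate and squares peripheral HEC. The 30 genes were chosen for having no overlap between the 2 tissues, and no gate difference within mesenteric HEC was called for any of them.

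Among homing genes, Madcam1 and Nkx2-3 were higher in mesenteric HEC with the sialyltransferase St6gal1, and the sulphotransferases Chst2 and Chst4 and the adhesion molecule Vcam1 were lower. Madcam1 read 5.45, 5.34, 5.62 and 5.45 on mesenteric arrays 1 to 4 and 2.55, 1.73, 1.73 and 1.87 on peripheral arrays 1 to 4. The difference was 3.50 ± 0.20, or 11.3-fold, and the lowest mesenteric array stood above the highest peripheral one. Against the same peripheral arrays, double-positive cells differed by 3.43 and MAdCAM1+ cells by 3.56.

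Nkx2-3 read 1.62, 0.99, 1.64 and 1.12 on mesenteric arrays and -0.13, 0.03, -0.19 and -0.48 on peripheral arrays. Every mesenteric array was higher than every peripheral one, and arrays 1 and 3 were the higher pair within the tissue. The difference was 1.53 ± 0.16, 2.89-fold (adjusted p = 1.67e-05). Of 15 genes of lymphotoxin receptor and NF-kB signalling 0 were called by limma (median 0.02), and 13.9% of all genes differed at an unadjusted p under 0.05. The lymphotoxin beta receptor Ltbr differed by 0.18 ± 0.07 (adjusted p = 0.261).

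St6gal1, which adds sialic acid to N-glycans and makes the ligand of the B cell lectin CD22, read 0.06 and 0.05 in double-positive cells and 0.71 and 0.53 in MAdCAM1+ cells. The peripheral arrays read -0.62, -0.71, -0.45 and -0.44, all below the mesenteric ones. It was higher by 0.89 ± 0.12 (1.86-fold, adjusted p = 0.000215). The difference from peripheral HEC was 1.18 in MAdCAM1+ cells (adjusted p = 0.000154) and 0.61 in double-positive cells (adjusted p = 0.0587), and the gates themselves did not pass a test of their difference (-0.57, adjusted p rounded to 1). St6gal1 was the single called gene of 13 for sialic acid synthesis.

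L-selectin ligand synthesis held 2 called genes of 17 (11.8%, against 2.69% of all genes), both lower, with a list median of -0.15. Chst4, the sulphotransferase of HEC that makes the L-selectin epitope, read 5.38 and 5.67 in double-positive cells and 3.90 and 4.18 in MAdCAM1+ cells, against 6.08, 6.08, 6.13 and 5.91 in peripheral HEC. No mesenteric array reached the peripheral ones, and the 2 arrays without the PNAd gate were the lowest. The pooled difference was -1.26 ± 0.32 (adjusted p = 0.0398) and the call was lost without any single HEC array, with differences of -1.34 to -1.19. After a second quantile normalization it was -0.93 (adjusted p = 0.225). In MAdCAM1+ cells Chst4 was lower, with a difference of -2.01 (adjusted p = 0.00858), while the double-positive cells differed by -0.52 (adjusted p = 0.867), and the difference between gates was 1.49 (adjusted p rounded to 1).

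Chst2, a second sulphotransferase of this pathway, read 1.31, 0.99, 0.98 and 0.51 on mesenteric arrays and 1.71, 1.77, 1.53 and 1.38 on peripheral arrays. It was lower, with a difference of -0.65 ± 0.12 (adjusted p = 0.00487). That call was lost in 3 of 20 settings, among them the fit without mesenteric arrays 2 and 4 (-0.45, adjusted p = 0.153). The fucosyltransferase Fut7 differed by -0.21 ± 0.15 (adjusted p = 0.581), the core branching enzyme Gcnt1 by -0.46 ± 0.19 (adjusted p = 0.279) and the extension enzyme B3gnt3 by -0.31 ± 0.11 (adjusted p = 0.174). The carrier Glycam1 stood at 4.81 to 5.07 on mesenteric and 4.60 to 5.07 on peripheral arrays, a difference of 0.07 ± 0.43 (adjusted p = 0.958). Of 10 sialomucin carriers, endomucin (Emcn) alone was called, at -0.57 ± 0.09 (adjusted p = 0.0018), and at -0.43 (adjusted p = 0.068) without mesenteric arrays 2 and 4.

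Of 15 adhesion molecules Vcam1, the ligand of the integrin VLA4, was the single lower one. It read 0.25, -0.10, 0.15 and -0.35 on mesenteric arrays, against 1.06, 0.73, 1.59 and 0.99 on peripheral arrays. The difference was -1.11 ± 0.20 (adjusted p = 0.00394), without overlap, and was -0.89 (adjusted p = 0.123) without mesenteric arrays 2 and 4. E-selectin (Sele) differed by -0.65 ± 0.24 (adjusted p = 0.215) and Icam1 by -0.22 ± 0.17 (adjusted p = 0.588). The scavenging chemokine receptor Ackr1, a marker of venules, differed by 0.00 ± 0.17 (adjusted p = 0.993).

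Of 17 chemokines, the interferon-induced Cxcl9 was lower (-0.61 ± 0.15, adjusted p = 0.0336), a call kept in 2 of the 8 fits that left out 1 HEC array each and at -0.30 (adjusted p = 0.575) without mesenteric arrays 2 and 4. The B cell attractant Cxcl13 differed by 0.62 (adjusted p = 0.213), and the gut chemokines Ccl25 and Ccl28 by -0.03 and 0.04. None of 14 genes of sphingosine phosphate and oxysterol metabolism was called, among them Ch25h and Cyp7b1, which make and convert oxysterols that guide B cells. The chemerin receptor Cmklr1 (0.56 ± 0.12, adjusted p = 0.0141) was the called member of 8 chemokine receptors, with overlapping groups: its difference was 1.01 in MAdCAM1+ cells (adjusted p = 0.000802) and 0.12 in double-positive cells (adjusted p = 0.943).

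**Figure D2:**
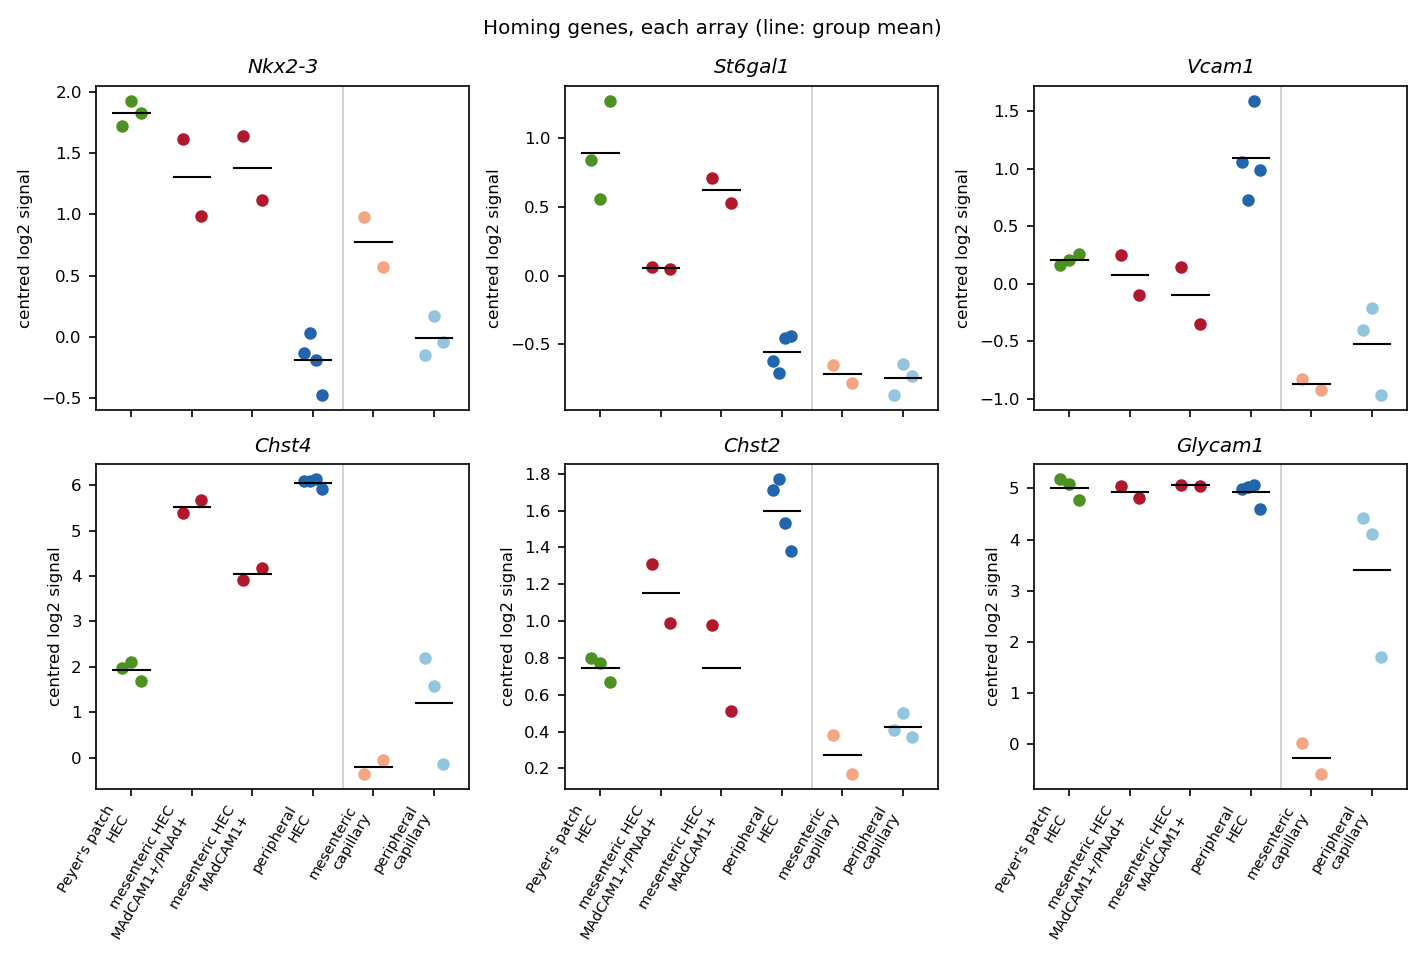
Centred log2 signal (y axis) of 6 homing genes on each array (points) with group means (lines), HEC groups left of the grey line and capillary groups right of it. Nkx2-3 and St6gal1 are higher and Vcam1, Chst4 and Chst2 lower in mesenteric than in peripheral HEC; Glycam1 is level over the HEC groups and spans 1.70 to 4.42 on peripheral capillary arrays.

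Called positional genes were more often higher than lower in mesenteric HEC. Of 43 Hox, Meis and Pbx genes, which mark the position of a tissue along the body axis, 6 were higher and 2 lower. That is 18.6% called, against 2.69% of all genes, with a list median of 0.14. Meis2, a cofactor of Hox proteins, read 0.15, -0.02, 0.22 and 0.00 in mesenteric HEC and -1.56, -1.63, -1.84 and -1.21 in peripheral HEC, a difference of 1.64 ± 0.15 (3.13-fold, adjusted p = 6.24e-06). Hoxa9 read 0.92, 1.08, 1.00 and 1.16 in mesenteric HEC, against 0.12, 0.01, 0.03 and -0.14 in peripheral HEC (1.03 ± 0.09, adjusted p = 4.51e-06). Both genes separated the tissues by more than the spread within either.

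Meis1 was higher by 0.72 ± 0.13 (adjusted p = 0.00487). Hoxa5 (0.49), Hoxb6 (0.42) and Hoxb9 (0.38) were higher and Hoxd8 (-0.63) and Hoxd10 (-0.57) lower too, but each of these 5 was kept in 1 of the 8 fits that left out 1 HEC array each. Their adjusted p reached 0.344, 0.541, 0.432, 0.374 and 0.363 without mesenteric arrays 2 and 4. Of 41 endothelial and positional transcription factors, Nkx2-3 and Id1 were higher and Foxc1 (-0.96 ± 0.18, adjusted p = 0.00494) and Fli1 (-0.54 ± 0.10, adjusted p = 0.00614) lower. Foxc1 and Fli1 are an endothelial forkhead and an ETS factor, and without arrays 2 and 4 their adjusted p was 0.0529 and 0.131. The venous factor Nr2f2 differed by 0.35 ± 0.13 (adjusted p = 0.217).

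Of 19 genes of retinoic acid uptake, synthesis and breakdown, 1 was higher and 1 lower in mesenteric HEC (10.5% called). Stra6, the receptor that takes up retinol from its plasma binding protein, read 2.71, 2.59, 2.52 and 2.32 in mesenteric HEC and 1.10, 1.08, 0.93 and 1.36 in peripheral HEC (1.42 ± 0.15, adjusted p = 1.93e-05). Dhrs3, which reduces retinaldehyde back to retinol, read -1.79, -2.05, -1.57 and -1.40 in mesenteric HEC, against -0.16, -0.29, -0.26 and 0.09 in peripheral HEC. It was lower, with a difference of -1.54 ± 0.09, 2.91-fold (adjusted p = 4.23e-08). The other 17 genes did not pass the test.

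Prostaglandin genes also moved both ways, with 2 higher and 2 lower of 23 (17.4% called, against 2.69% of all genes). Slco2a1, which carries prostaglandins into cells, read 0.61, 0.85, 0.92 and 0.95 on mesenteric arrays and -1.80, -0.45, -0.62 and -0.55 on peripheral arrays, of which array 1 stood apart from the other 3. It was higher by 1.69 ± 0.21 (adjusted p = 9.56e-05). Prostacyclin synthase Ptgis was higher by 0.59 ± 0.09 (adjusted p = 0.00133). Prostaglandin D synthase Ptgds was lower, with a difference of -1.14 ± 0.16 (adjusted p = 0.00041). The inducible cyclooxygenase Ptgs2 was lower, with a difference of -1.20 ± 0.26 (adjusted p = 0.017), a call lost without mesenteric array 2, mesenteric array 4 or peripheral array 3, with -0.84 (adjusted p = 0.346) without mesenteric arrays 2 and 4.

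Nitric oxide, endothelin and natriuretic peptide signalling had 3 higher genes and 1 lower gene of 18 (22.2% called, against 2.69% of all genes). Gucy1a1, a subunit of the soluble guanylate cyclase that senses nitric oxide, read -0.60 and -0.65 in double-positive cells and 0.00 and 0.37 in MAdCAM1+ cells, against -1.54, -1.41, -1.57 and -1.47 in peripheral HEC. It was higher by 1.28 ± 0.14 (adjusted p = 3.54e-05). Endothelial nitric oxide synthase Nos3 was higher by 0.65 ± 0.10 (adjusted p = 0.00124, and 0.0532 without mesenteric arrays 2 and 4). The partner subunit Gucy1b1 was higher by 0.62 ± 0.16 (adjusted p = 0.0481), a call lost without any single HEC array (adjusted p up to 0.177). The natriuretic peptide receptor Npr2 was lower, with a difference of -0.92 ± 0.12 (adjusted p = 0.000125).

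Of the VEGF, angiopoietin and apelin genes, 18 of 20 did not pass the test. The apelin receptor Aplnr, a receptor of venous and growing endothelium, read 0.50 and 0.14 in double-positive and 1.26 and 0.80 in MAdCAM1+ cells, and -0.96, -0.89, -0.69 and -1.0 in peripheral HEC. It was higher by 1.56 ± 0.13 (adjusted p = 1.87e-06). Angiopoietin-2 (Angpt2), a destabilising ligand of the receptor Tek, read 0.70, 0.01, 0.54 and -0.37 in mesenteric HEC and 1.89, 1.95, 1.98 and 1.59 in peripheral HEC, lower, with a difference of -1.63 ± 0.20 (adjusted p = 0.000105).

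TGF-beta and BMP genes were split, with 3 higher and 2 lower of 28 (17.9% called, against 2.69% of all genes). Ltbp1, which binds latent TGF-beta in the matrix, was higher by 1.51 ± 0.15 (adjusted p = 8.55e-06), with 0.53 to 1.12 on mesenteric arrays and -0.90 to -0.38 on peripheral arrays. Bmp2, a ligand of the family, was lower, with a difference of -1.49 ± 0.21 (adjusted p = 0.000488), with -0.27 to 0.68 on mesenteric and 1.40 to 2.00 on peripheral arrays. Inhbb (0.74), the BMP target Id1 (0.64) and Bmp6 (-0.70) were called too, but in the 8 fits that left out 1 HEC array each they kept their calls in 1, 4 and 1.

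The other named higher genes were Fjx1, a secreted Golgi kinase-like protein (1.63), Pou2af1, a transcriptional coactivator best known from B cells (1.37), and Islr, a leucine-rich surface protein (1.37). Rassf9 (1.33), the quinone reductase Nqo1 (1.26) and Rgs16, a brake on G protein signalling (1.20), completed them. Pou2af1 read 3.13 and 2.75 in double-positive cells, 2.20 and 1.87 in MAdCAM1+ cells and 1.06, 1.25, 1.08 and 1.05 in peripheral HEC. It followed the PNAd gate within mesenteric HEC, but that difference (0.90, adjusted p = 0.0574) did not pass. The 12 B cell markers, Pou2af1 among them, averaged 0.45 to 0.77 on mesenteric arrays and 0.61 to 0.84 on peripheral arrays, with 10 of 12 differences below 0. The other called member, the IgE receptor Fcer2a, was lower (-0.65, adjusted p = 0.0299), a call kept in 1 of the 8 fits that left out 1 HEC array each.

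Slc7a6 had the lowest difference of all named genes. This exchanger of basic and neutral amino acids read -1.69, -1.74, -1.96 and -2.11 in mesenteric HEC and 1.85, 1.42, 1.79 and 1.44 in peripheral HEC, which is 11.3-fold lower (-3.50 ± 0.12, adjusted p = 2.15e-11). Itih5 read -2.57, -3.27, -3.21 and -2.99 in mesenteric HEC, against 0.30, 0.30, 0.27 and 0.04 in peripheral HEC (-3.23 ± 0.15, 9.41-fold, adjusted p = 1.36e-09). Between the lowest peripheral and the highest mesenteric array, both genes left a gap wider than the range within either group.

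Itih5 belongs to the inter-alpha-trypsin inhibitor heavy chains, which bind hyaluronan. Of 19 protease inhibitors measured, Itih4 (-0.99 ± 0.17, adjusted p = 0.0022) and the metalloproteinase inhibitor Timp3 (-0.94 ± 0.15, adjusted p = 0.00171) were lower too and 0 were higher. Without mesenteric arrays 2 and 4 Timp3 had an adjusted p of 0.068. Itih5 is also in the lymphatic marker list, whose 10 other members were not called and whose mean was 0.22 to 0.44 on mesenteric and 0.34 to 0.62 on peripheral arrays.

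Coagulation factor VIII, which endothelium releases into plasma, read 2.52, 1.71, 2.29 and 1.63 in mesenteric HEC and 4.81, 4.65, 4.92 and 4.17 in peripheral HEC (-2.60 ± 0.25, 6.07-fold lower, adjusted p = 1.03e-05). The thrombin receptor F2rl3 was higher by 1.16 ± 0.14 (adjusted p = 0.000109), and 19 of 22 coagulation genes were not called. F2r, a second thrombin receptor, was lower, with a difference of -0.59 ± 0.13 (adjusted p = 0.0173) and was kept in 4 of the 8 fits that left out 1 HEC array each.

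Platelet factor 4, a chemokine stored in platelet granules, read 1.88 and 1.86 in double-positive cells and 0.72 and 0.62 in MAdCAM1+ cells, against 3.83, 2.86, 3.34 and 4.02 in peripheral HEC. It was lower, with a difference of -2.24 ± 0.20 (adjusted p = 3.4e-06), and both gates lay below every peripheral array. None of the other 5 red cell and platelet markers was called. The gates themselves differed by 1.20 (adjusted p = 0.427).

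The other named lower genes had differences of -2.17 to -1.60. Mme (neprilysin, a peptidase) differed by -2.03, the claudin Cldn13 by -2.02, the lymphocyte antigen family gene Ly6i by -1.90 and the muscarinic receptor Chrm3 by -1.84. Bst1, an NAD-consuming surface enzyme that stromal cells also carry, differed by -1.82 and Emp2, a tetraspan protein, by -1.82. The others were the actin-binding Pdlim3 (-2.17), the matrix protein Ecm2 (-1.78), the urea transporter Slc14a1 (-1.65) and the calcium-binding Necab2 (-1.60). The 15 reticular and fibroblast markers, of which Bst1 alone was called, averaged -0.10 to -0.03 on mesenteric arrays and -0.07 to 0.23 on peripheral arrays.

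Of 32 guidance genes 5 were lower and 0 higher (15.6% called), where 73.2% of all calls were lower, and the list median was 0.02. The netrin receptor Unc5c (-0.84 ± 0.09, adjusted p = 2.73e-05) and the semaphorin receptor Plxna4 (-0.79 ± 0.10, adjusted p = 0.000207) kept their calls under all 20 settings. Epha4 was lower, with a difference of -0.77 ± 0.16 (adjusted p = 0.00975), and of -0.64 without mesenteric array 2 (adjusted p = 0.0721). Sema6a (-0.54) and Robo1 (-0.40) were called with overlapping groups. Sema6a lost its call without mesenteric array 2 or 4, and Robo1 was kept in 1 of the 8 fits that left out 1 HEC array each.

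Heparan sulphate genes, which make and trim the chains that hold chemokines at the vessel wall, had 3 lower and 1 higher of 23. The extracellular sulphatase Sulf1 was lower, with a difference of -1.27 ± 0.15 (adjusted p = 6.7e-05). The core protein glypican-1 (Gpc1) read 0.00, 0.05, -0.02 and -0.22 in mesenteric HEC and 1.12, 1.03, 1.10 and 1.16 in peripheral HEC (-1.15 ± 0.09, adjusted p = 8.78e-07). Ndst3 (-0.38) and serglycin (Srgn, 0.41) were called with adjusted p of 0.0401 and 0.0492, which held in 2 and 1 of the 8 fits that left out 1 HEC array each. Among 28 basement membrane genes and integrins, the matricellular Sparcl1 was lower, with a difference of -1.41 ± 0.13 (adjusted p = 4.51e-06) and the integrin chain Itgb3 by -0.74 ± 0.19 (adjusted p = 0.0428). The Itgb3 groups overlapped, and its call was kept in 1 of the 8 fits that left out 1 HEC array each.

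Of 29 growth factor and cytokine genes 4 were lower and 1 higher (17.2% called), where 73.2% of all calls were lower. Interleukin-15 (Il15), a survival cytokine of memory T and natural killer cells, read 0.77 and 0.58 in double-positive and -0.05 and 0.00 in MAdCAM1+ cells, against 1.29, 1.27, 1.17 and 1.91 in peripheral HEC. It was lower, with a difference of -1.08 ± 0.19 (adjusted p = 0.00385), and of -1.04 (adjusted p = 0.0689) without mesenteric arrays 2 and 4. Interleukin-7 (Il7), which sustains naive T cells, was lower, with a difference of -0.58 ± 0.13 (adjusted p = 0.0169), a call kept in 3 of the 8 fits that left out 1 HEC array each. Pdgfc was higher by 0.67 ± 0.10 (adjusted p = 0.00101), Igf1r lower, with a difference of -0.64 ± 0.13 (adjusted p = 0.0102, and 0.0654 without mesenteric array 4), and Igfbp3 lower, with a difference of -0.61 ± 0.14 (adjusted p = 0.0239) with overlap. Igfbp3 was kept in 3 of the 8 fits that left out 1 HEC array each, with differences of -0.81 to -0.40, and differed by -0.33 (adjusted p = 0.221) after a second quantile normalization.

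**Figure D3:**
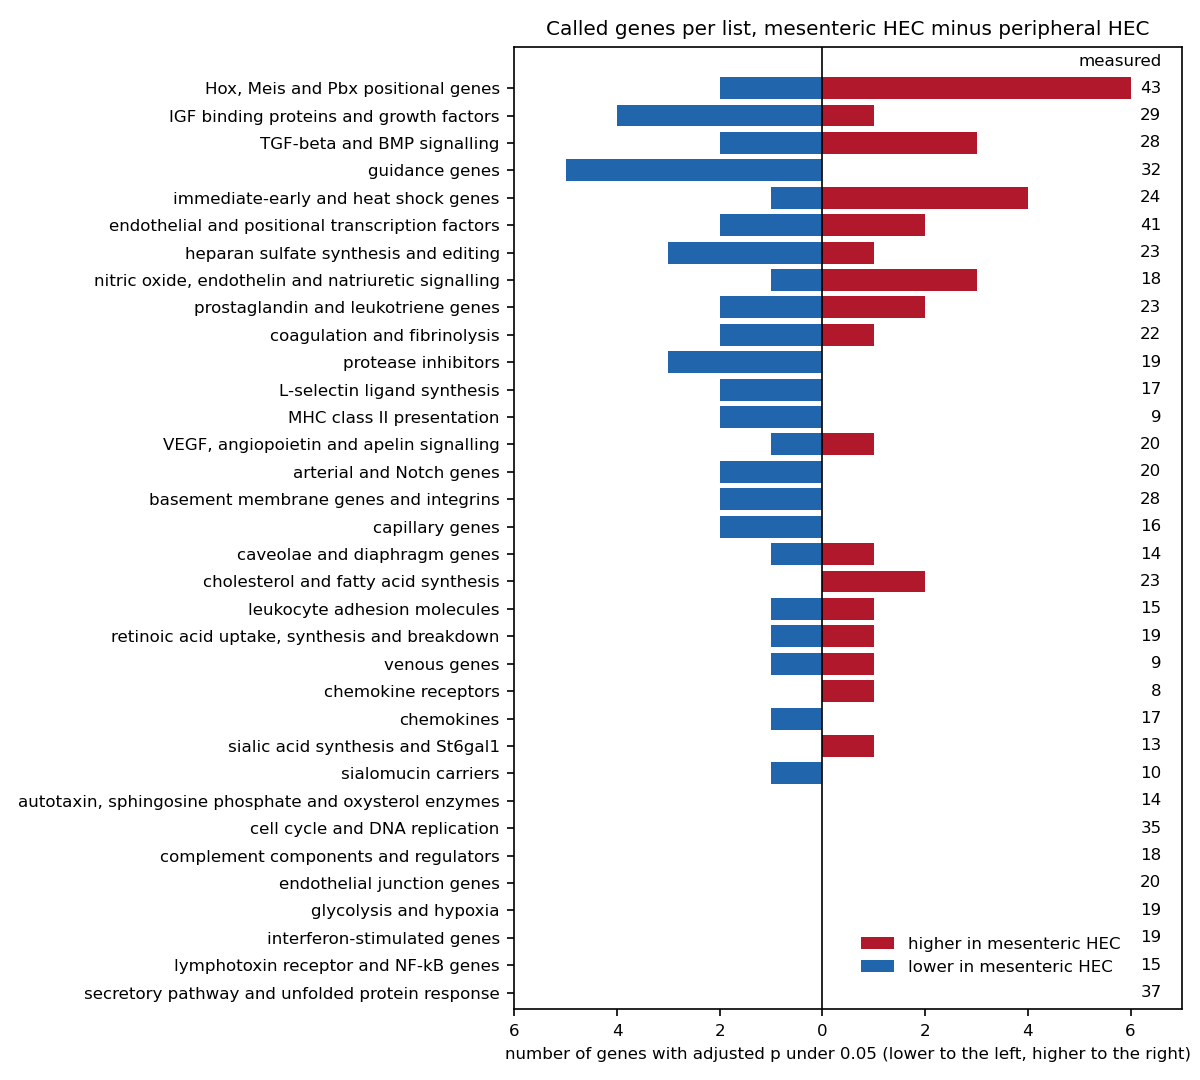
Number of genes per list (x axis) that were lower (bars to the left) and higher (bars to the right) in mesenteric HEC than in peripheral HEC at an adjusted p under 0.05, with the number measured at the right. Hox, Meis and Pbx genes have 6 higher and 2 lower, guidance genes 5 lower and 0 higher, and 8 of the lists drawn, which leave out the marker lists, have none.

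Heat shock genes were higher and immediate-early genes mostly level. Of 24 genes in this list 4 were higher and all 4 encode chaperones: Hspa1a, Hspb1, Hsph1 and Dnajb1. Hspa1a, the stress-inducible HSP70 gene, read 0.32, 0.10, 0.36 and 0.10 in mesenteric HEC and -3.10, -2.20, -2.0 and -2.22 in peripheral HEC, higher by 2.60 ± 0.21, or 6.08-fold (adjusted p = 8.76e-07). Its near-identical neighbour Hspa1b lies on a probe set that the annotation gives to both genes, so their signals may not be separate. The small chaperone Hspb1 was higher by 1.06 ± 0.14 (adjusted p = 0.000207), Hsph1 by 0.99 ± 0.20 (adjusted p = 0.00949) and Dnajb1 by 0.79 ± 0.11 (adjusted p = 0.000539), each without overlap. Without mesenteric array 2 Hsph1 had an adjusted p of 0.0536.

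Mesenteric capillary arrays differed from peripheral capillary arrays by 1.22 for Hspa1a (adjusted p = 0.0774), 0.74 for Hspb1 (adjusted p = 0.153), 1.08 for Hsph1 (adjusted p = 0.145) and 0.67 for Dnajb1 (adjusted p = 0.0828). None of the 4 passed there, and none passed the test of HEC against capillary difference, which for Hspa1a was 1.39 (adjusted p = 0.111). Immediate-early genes, in the same list, had 1 called member, Fosb, lower, with a difference of -0.55 ± 0.08 (adjusted p = 0.000896). Fos differed by -0.07 (adjusted p = 0.876), Jun by -0.17 (adjusted p = 0.542) and Egr1 by 0.00 (adjusted p = 0.995).

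Because these 4 genes moved together, their promoters were searched for a heat shock element, GAANNTTC, which is its own reverse complement. The 250 bases before the start site of Hspa1a (GRCm38.p6, chr17:34972157-34972406, minus strand) held 1 match, 104 bases before the start, and those of Hspb1 (chr5:135887669-135887918, plus strand) held 2, at 117 and 97 bases before it. Capitals mark the matches in the RefSeq sequences.
Hspa1a promoter: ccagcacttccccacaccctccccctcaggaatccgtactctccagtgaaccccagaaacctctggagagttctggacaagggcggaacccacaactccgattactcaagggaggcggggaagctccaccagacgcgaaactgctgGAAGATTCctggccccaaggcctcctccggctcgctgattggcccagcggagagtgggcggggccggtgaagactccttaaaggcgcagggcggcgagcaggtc
Hspb1 promoter: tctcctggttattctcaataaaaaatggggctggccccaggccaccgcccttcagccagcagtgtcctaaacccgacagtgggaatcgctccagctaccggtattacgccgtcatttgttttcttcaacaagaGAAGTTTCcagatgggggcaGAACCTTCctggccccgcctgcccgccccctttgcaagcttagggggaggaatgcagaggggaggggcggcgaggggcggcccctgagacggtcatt
The 2 RefSeq windows each of Hsph1 and Dnajb1 held no match, and 6.69% of the 32851 windows held at least 1.

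Interferon-stimulated genes had 0 called of 19, by the same limma test, with a list median of -0.30 and 16 of 19 differences below 0. Over all 19938 genes 8339 differences were below 0. The list mean was -0.52 to -0.34 on mesenteric arrays and -0.25 to -0.02 on peripheral arrays. The differences nearest to a call were Ifit1 (-0.60, adjusted p = 0.0546) and Usp18 (-0.62, adjusted p = 0.0948). Genes of MHC class II presentation had 2 lower and 0 higher of 9 (22.2% called, against 2.69% of all genes, median -0.30). These were H2-Ab1 (-0.57 ± 0.15, adjusted p = 0.0441) and H2-Eb1 (-0.44 ± 0.11, adjusted p = 0.0314), each kept in 2 of the 8 fits that left out 1 HEC array each. The class II list averaged 0.38 to 0.55 on mesenteric arrays and 0.52 to 0.86 on peripheral arrays, which overlapped.

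Cholesterol and fatty acid synthesis had 20 of 23 differences above 0, as did 11599 of all 19938 genes. The list had a median of 0.19 and 2 higher genes. These were squalene epoxidase Sqle (0.67 ± 0.16, adjusted p = 0.0314) and the desaturase Scd2 (0.43 ± 0.10, adjusted p = 0.0254). They kept their calls in 4 and 1 of the 8 fits that left out 1 HEC array each, and centring each array on its median left Sqle without a call. The list mean was 0.33 to 0.49 on mesenteric arrays and 0.05 to 0.27 on peripheral arrays.

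Markers of other cells that a sort may hold also moved with the tissue. All 10 T cell markers had differences below 0 (median -0.38), as did 8339 of all 19938 genes. Their mean was 0.06 to 0.14 on mesenteric arrays and 0.38 to 0.45 on peripheral arrays. The interleukin-7 receptor Il7r was lower, with a difference of -0.75 ± 0.10 (adjusted p = 0.000224) and Cd28 by -0.48 ± 0.12 (adjusted p = 0.0356, kept in 2 of the 8 fits that left out 1 HEC array each), while the T cell receptor genes Cd3e (-0.32), Cd3d (-0.02) and Cd3g (-0.44) did not pass. In the myeloid and dendritic list of 16, the homing receptor Ccr7, which T cells and dendritic cells carry, was lower, with a difference of -0.88 ± 0.14 (adjusted p = 0.00161) and Cd14 higher by 0.70 ± 0.15 (adjusted p = 0.0133, overlapping, and lost without mesenteric array 2 or 4).

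All 13 pericyte and smooth muscle markers had differences above 0 (median 0.31), as did 11599 of all 19938 genes. Their mean was -0.51 to -0.38 on mesenteric and -0.85 to -0.72 on peripheral arrays. Smooth muscle actin (Acta2) was the called member, higher by 1.08 ± 0.20 (adjusted p = 0.00519), and by 1.06 (adjusted p = 0.0785) without mesenteric arrays 2 and 4. The part of T cells and pericytes in the results above was not tested, and in sorted bulk samples fewer cells of a type and less RNA per cell cannot be told apart. Because values are centred, it is not known which of these markers were at background.

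Intestinal epithelial markers had 0 called of 18, with 16 differences above 0. Their mean was 0.04 to 0.10 on mesenteric and -0.09 to 0.03 on peripheral arrays. Plasma cell markers had 1 called of 8 (Fkbp11, 0.41, adjusted p = 0.0206, overlapping, kept in 4 of the 8 fits). The adipocyte and mesothelial list of 13 had 12 differences above 0 and 1 lower gene, the membrane protein Gpm6a (-1.14 ± 0.14, adjusted p = 7.34e-05). The 4 sex-linked genes did not pass the test (adjusted p = 0.132 to 0.81). Xist, expressed from the inactive X chromosome of females, read 0.27, -0.61, 0.26 and -0.73 on mesenteric arrays and 0.64, 0.32, 0.82 and 0.68 on peripheral arrays (-0.82, adjusted p = 0.132). Mesenteric arrays 2 and 4 were again the pair apart from 1 and 3. Of 15 pan-endothelial markers 12 had differences below 0 (median -0.06), and Emcn was the called member. The list mean was -0.02 to 0.03 on mesenteric and 0.06 to 0.25 on peripheral HEC arrays, without overlap. In this list Pecam1 and Cdh5 both differed by -0.04 (adjusted p = 0.878 and 0.858).

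**Figure D4:**
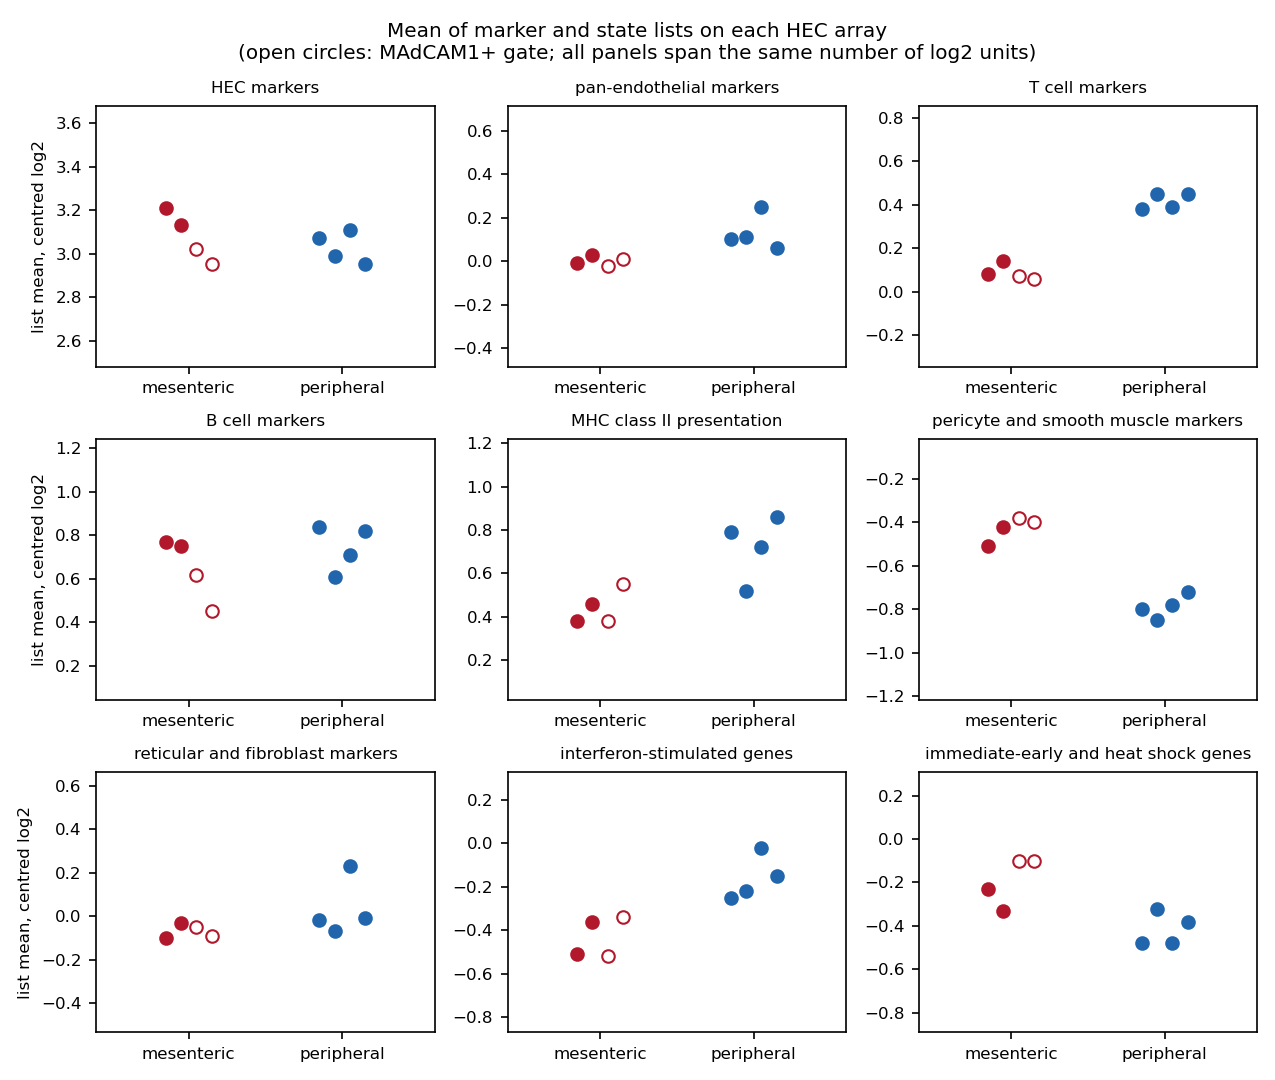
Mean centred log2 signal (y axis) of 9 marker and state lists on each HEC array, mesenteric left and peripheral right, with open circles for the MAdCAM1+ gate. T cell markers (0.06 to 0.14 in mesenteric and 0.38 to 0.45 in peripheral HEC), pericyte markers and interferon genes separate the tissues. So do pan-endothelial markers (-0.02 to 0.03 in mesenteric and 0.06 to 0.25 in peripheral HEC). Separation is not particular to these lists. Among lists not drawn, L-selectin ligand synthesis (0.83 to 1.04 and 1.06 to 1.18) and red cell and platelet markers (0.04 to 0.40 and 0.46 to 0.63) also separate. HEC markers, which include the gene of the gating antigen, Madcam1, and B cell markers overlap.

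Of 9 venous genes 2 were called (22.2%, against 2.69% of all genes), Aplnr higher and Vcam1 lower, as given above. Of 20 arterial and Notch genes the Notch ligand Dll1 (-0.82, adjusted p = 0.00246, and 0.076 without mesenteric arrays 2 and 4) and the ephrin Efnb2 (-0.50, adjusted p = 0.0176) were lower (10% called), and Efnb2 was kept in 3 of the 8 fits that left out 1 HEC array each. Of 16 capillary genes Cd300lg (-0.68, adjusted p = 0.0178) and Igfbp3 were lower (12.5% called), and they were kept in 5 and 3 of those 8 fits. Of 14 genes of caveolae and diaphragms 2 were called (14.3%). The trafficking protein Ehd1 was lower (-0.90, adjusted p = 0.00769, lost without mesenteric array 2 or 4). The lipid transporter Mfsd2a was higher (0.48, adjusted p = 0.0203, kept in 4 of the 8 fits).

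Several groups had 0 called genes by limma: 18 complement genes, 20 junction genes, 37 secretory pathway and unfolded protein response genes, 19 glycolysis and hypoxia genes and 35 cell cycle genes. Their medians lay between -0.05 and 0.07, near the 0.03 of all genes. At an unadjusted p under 0.05, 13.9% of all genes differed, so small differences may go uncalled at this number of arrays. Within the junction list Cldn5, the claudin of tight endothelium, had the widest difference (-0.76 ± 0.27, adjusted p = 0.194), with overlapping arrays.

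The gates of mesenteric HEC differed from each other in 4 genes (0.0201%), all lower in double-positive cells, and in 335 (1.68%) at an unadjusted p under 0.05. Myof, a membrane repair protein, read -0.63 and -0.94 in double-positive cells and 0.73 and 0.99 in MAdCAM1+ cells (-1.65, adjusted p = 0.000296). Cytl1, a secreted cytokine-like protein, read -0.42 and -0.24 in double-positive cells, against 1.11 and 0.99 in MAdCAM1+ cells (-1.39, adjusted p = 0.000287). In peripheral HEC both lay close to the double-positive gate, at -0.71 to -0.55 for Myof and -0.50 to -0.19 for Cytl1.

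The matrix protein fibulin-2 (Fbln2) read -0.27 and -0.52 in double-positive cells and 0.90 and 0.88 in MAdCAM1+ cells (-1.29, adjusted p = 0.00249). Tacr1, the receptor of substance P, read -0.14 and 0.20 in double-positive cells and 1.02 and 1.37 in MAdCAM1+ cells (-1.17, adjusted p = 0.0178). Myof, Cytl1 and Tacr1 passed the pooled tissue comparison (0.66, 0.71 and 0.76) with overlapping groups. Against peripheral HEC they differed by 1.48, 1.40 and 1.35 in MAdCAM1+ cells and by -0.16, 0.02 and 0.18 in double-positive cells. With the gates ignored none of the 3 was called.

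Under the replicate block Myof (-1.56, adjusted p = 0.0252) and Cytl1 (-1.41, adjusted p = 0.0193) still differed between the gates, while Fbln2 (-1.07, adjusted p = 0.102) and Tacr1 (-1.06, adjusted p = 0.102) did not pass. Without single mesenteric arrays Fbln2 lost its call once (without array 2, adjusted p = 0.0838) and Tacr1 lost it without array 1 (adjusted p = 0.515) or 4 (adjusted p = 0.167). The count of genes between gates was 17 without array 4.

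Against the same peripheral arrays, 188 genes were called for double-positive cells (0.943%; 44 higher, 144 lower) and 370 for MAdCAM1+ cells (1.86%; 101 higher, 269 lower). Of the 30 genes with the highest and lowest differences, Slc14a1 and Nqo1 passed in MAdCAM1+ cells but not in double-positive cells (-2.32, adjusted p = 2.38e-05; 1.54, adjusted p = 0.00175). In double-positive cells they differed by -0.98 (adjusted p = 0.0689) and 0.99 (adjusted p = 0.0726). The difference between gates itself was 1.34 for Slc14a1 (adjusted p = 0.223) and -0.55 for Nqo1 (adjusted p rounded to 1). With 2 arrays a gate, each count was sensitive to the loss of 1: 60 to 103 for double-positive and 138 to 185 for MAdCAM1+ cells.

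The same pair of tissues was set side by side in capillary cells, which come from other arrays. There 58 genes were called (0.291%; 24 higher, 34 lower in mesenteric capillary cells), and 4 without peripheral capillary arrays 1 and 2. Of the 58, 23 were also called in HEC, which is 4.28% of the HEC calls and 39.7% of the capillary calls, and 17 of the 23 had the same direction. Meis2 (1.64 in HEC, 1.71 in capillary cells), Rassf9 (1.33 and 1.45) and Hoxa5 (0.49 and 0.89) were higher in both, as was monoacylglycerol lipase Mgll (1.13 and 0.84). Slc7a6 (-3.50 and -1.22), Itih5 (-3.23 and -1.06), Slc14a1 (-1.65 and -2.73), Gpc1 (-1.15 and -0.68) and N-cadherin Cdh2 (-1.06 and -1.40) were lower in both.

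The other 6 went opposite ways: Myof, Cytl1, Scd2 and Lrrc55 were higher in mesenteric HEC and lower in mesenteric capillary cells, while Fmo2 and Cd24a were lower in mesenteric HEC and higher in mesenteric capillary cells. For Lrrc55 the differences were 0.70 in HEC and -1.40 in capillary cells, and for Fmo2 -0.66 and 1.26. The HEC calls of Scd2, Lrrc55, Fmo2 and Cd24a each held in 1 of the 8 fits that left out 1 HEC array.

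Tested directly, the tissue difference of HEC differed from that of capillary cells in 83 genes (0.416%; 29 above, 54 below), and in 46 without peripheral capillary arrays 1 and 2. Without mesenteric capillary array 1 or 2 the count was 35 or 38, and without mesenteric HEC array 2 it was 52. Fjx1 differed by 1.54 more in HEC (adjusted p = 0.00243), Aplnr by 1.55 (adjusted p = 0.00186), Stra6 by 1.53 (adjusted p = 0.00583) and Gucy1a1 by 1.42 (adjusted p = 0.007), with capillary differences of -0.14 to 0.08. Slc7a6, which was lower in both cell types, had a wider difference in HEC (-2.29, adjusted p = 2.09e-05). Pdlim3 differed by 0.25 in capillary cells and thus by -2.42 more in HEC (adjusted p = 0.000233), and Dhrs3 by 0.27 and -1.81 (adjusted p = 2.09e-05). For Meis2 and Rassf9 the test gave -0.07 (adjusted p = 0.993) and -0.12 (adjusted p = 0.99).

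Peripheral capillary arrays 1 and 2 carried the HEC markers named at the start, so these tests were repeated without them, with the remaining peripheral capillary array assumed to vary like the other groups. The HEC excess of Fjx1 was then 1.67 (adjusted p = 0.00809), that of Aplnr 1.48 (adjusted p = 0.0345) and that of Stra6 1.52 (adjusted p = 0.0239). Slc7a6 gave -2.45 (adjusted p = 0.000978), Pdlim3 -2.66 (adjusted p = 0.00162) and Dhrs3 -1.71 (adjusted p = 0.00162), while Gucy1a1 gave 1.18 (adjusted p = 0.113). Of the capillary differences named above, those of Meis2 (1.96, adjusted p = 0.0114) and Slc14a1 (-2.47, adjusted p = 0.00265) passed without the 2 arrays. Those of Rassf9 (1.48, adjusted p = 0.181), Mgll (0.85, adjusted p = 0.67) and Hoxa5 (0.59, adjusted p rounded to 1) did not. Nor did those of Slc7a6 (-1.05, adjusted p = 0.21), Itih5 (-0.83, adjusted p = 0.834), Gpc1 (-0.49, adjusted p = 0.806), Cdh2 (-1.08, adjusted p = 0.23), Lrrc55 (-1.28, adjusted p = 0.556) and Fmo2 (1.33, adjusted p = 0.21). The capillary differences of Myof (-0.66, adjusted p = 0.939), Cytl1 (-0.69, adjusted p = 0.508), Scd2 (-0.53, adjusted p = 0.687) and Cd24a (0.65, adjusted p = 0.413) did not pass either.

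Glycam1 gave 3.76 in this test (adjusted p = 0.0229) with an HEC difference of 0.07. Mesenteric capillary arrays read 0.03 and -0.58, against 4.42, 4.11 and 1.70 on the peripheral capillary arrays. Scgb3a1, a small secreted protein, gave -2.80 (adjusted p = 0.013) with a capillary difference of 3.11 and an HEC difference of 0.30 (adjusted p = 0.69). Without peripheral capillary arrays 1 and 2 the test gave 2.05 for Glycam1 (adjusted p = 0.199) and -1.93 for Scgb3a1 (adjusted p = 0.122).

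**Figure D5:**
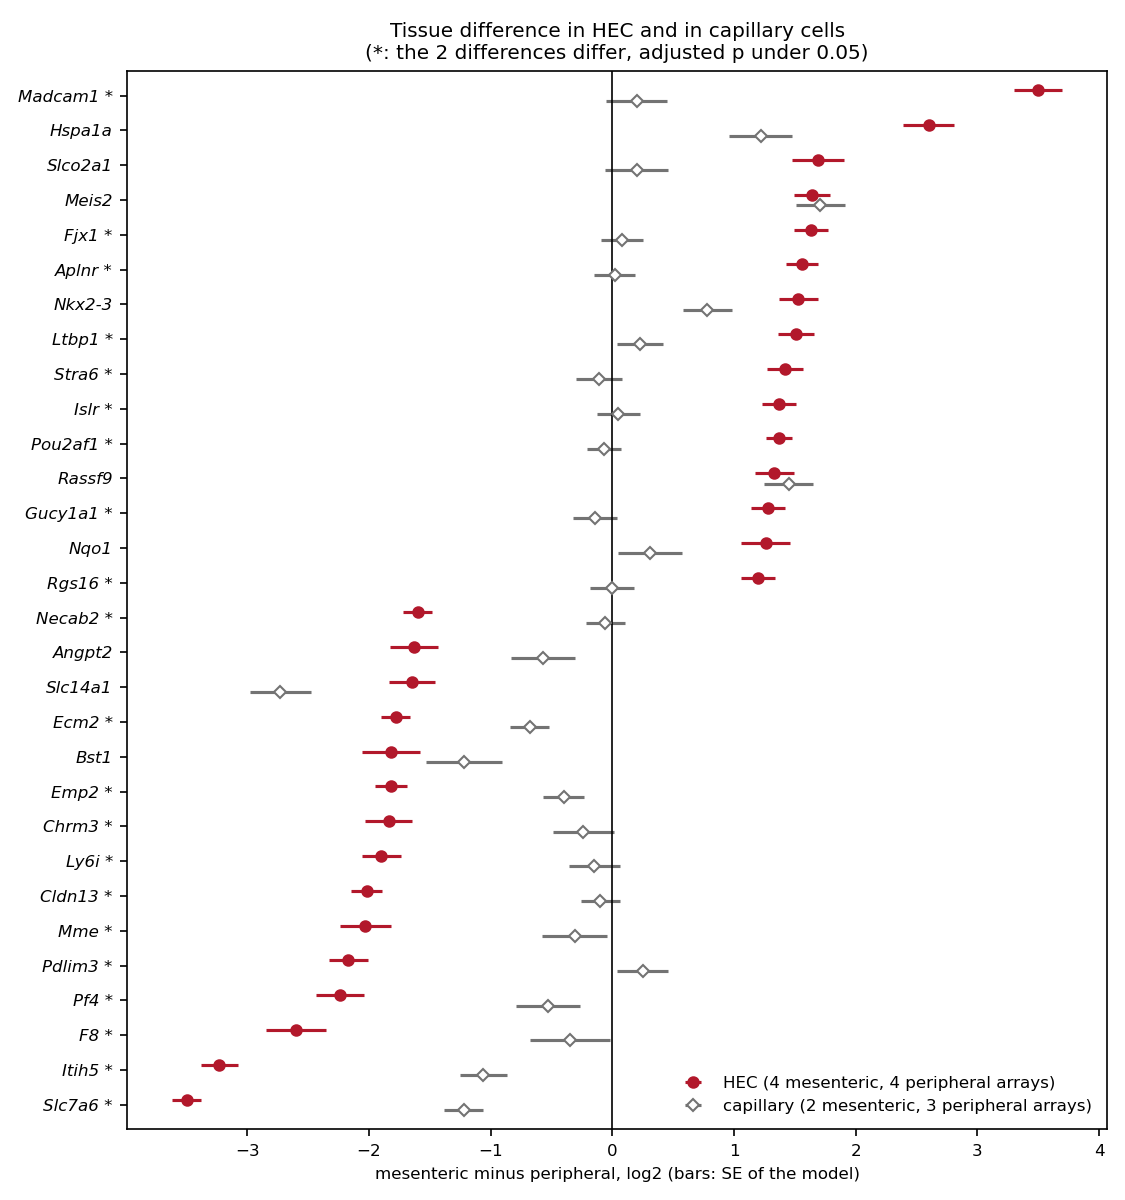
Mesenteric minus peripheral difference (x axis, log2, bars are the SE) of the 30 named genes in HEC (filled circles) and capillary cells (open diamonds), with an asterisk where the 2 differences differ at an adjusted p under 0.05. Meis2 (1.64 and 1.71) and Rassf9 coincide, and most lower genes lie nearer to 0 in capillary cells, except Slc14a1 (-1.65 and -2.73). The genes were chosen for wide HEC differences, and that choice alone can place capillary differences nearer to 0.

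Peyer's patch HEC, from the lymphoid tissue in the gut wall, were set against the mesenteric arrays used above, so the comparisons share those arrays. They differed in 239 genes (1.2%; 111 higher, 128 lower in Peyer's patch HEC), a count that was 946 without Peyer's patch array 3 and 98 without array 1. Fjx1 was higher in Peyer's patch HEC by 2.09 (adjusted p = 8.84e-07), Gucy1a1 by 1.72 (adjusted p = 2.31e-05), Aplnr by 1.39 (adjusted p = 5.77e-05) and Rgs16 by 1.21 (adjusted p = 0.000282). Madcam1 differed by 0.23 (adjusted p = 0.711), Nkx2-3 by 0.49 (adjusted p = 0.223) and Slc7a6 by 0.01 (adjusted p = 0.977). Lower in Peyer's patch HEC were Chst4 (-2.86, adjusted p = 0.000187), Slc14a1 (-1.63, adjusted p = 0.000379) and Cldn13 (-0.89, adjusted p = 0.00214). Opposite to its difference between the nodes, Hoxa9 was lower in Peyer's patch than in mesenteric HEC (-0.95, adjusted p = 7.74e-05), and Ptgs2 was higher (2.13, adjusted p = 0.00052).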

How the data were processed

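The authors deposited 1 table of log2 signals over 28856 probe sets for 19 Affymetrix arrays, made with RMA and Partek (versions not given) per the submitters' processing notes. The values are centred for each probe set on a baseline not given in the sources used here. From 0 at that baseline they run below and above, so background and detection are unknown and precision is limited by the number of arrays. Probe sets with 1 gene symbol (21789) were averaged to 19938 genes. Those with several symbols (1621) or none (5446) were not named.

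Differences were fitted with limma 3.58.1 in R 4.3.3 on 7 group means over all 19 arrays (12 residual degrees of freedom), with Benjamini-Hochberg adjustment over all genes and a threshold of 0.05. On simulated data the fit recovered 96% of genes changed by 1 and 100% of those changed by 2 on the log2 scale, of 100 each. It also called 10 unchanged genes, of 206 calls. The simulated arrays varied independently, while mesenteric HEC arrays 1 and 3, and 2 and 4, lay close together, so these rates need not hold for the real arrays. Tables and figures used Python 3.11.15, pandas 2.3.3 and matplotlib 3.10.9.

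Genes were named by rule. They were the 15 highest and 15 lowest called genes with a difference of at least 1 and no overlap between the tissues, predicted genes, small RNAs, chemosensory receptors and antigen receptor segments left out. Added were up to 4 leading called genes of each list, fixed homing and endothelial genes, and up to 5 leading genes each of the tests between HEC and capillary cells and between gates. Other list members were named to account for them, and genes called in both HEC and capillary cells were chosen after their values were seen. The members and the 47 gene lists were chosen with earlier results of these data known. Alternatives were a replicate block, other normalizations and filters, other array sets and the loss of each array. Same-numbered arrays of the 2 tissues correlated by -0.013 to 0.204 in their deviations, so the numbers were not taken to pair them.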

Additional observations from a re-analysis of the deposited data

Results flagged for a closer look

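Of 114 genes tested in peripheral HEC, 5 had an array far from the other 3 (4.39%), and chance gives about 1 in 20. Slco2a1 read -1.80 on array 1, against a median of -0.55 on the others. Pou2af1 read 1.25 on array 2, with 1.06 on the others, and Itih5 read 0.04 on array 4, with 0.30 on the others. Il15 read 1.91 on array 4 (1.27 on the others) and Il7r 0.57 on array 1 (0.91 on the others).

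The mesenteric minus peripheral difference was larger in HEC than in capillary cells, by a test of the difference itself, for several higher genes. The excess of Madcam1 (3.30, adjusted p = 8.81e-05) describes the sort and is no finding. The excess was 1.54 for Fjx1, 1.55 for Aplnr, 1.28 for Ltbp1, 1.53 for Stra6 and 1.44 for Pou2af1. It was 1.32 for Islr, 1.42 for Gucy1a1 and 1.20 for Rgs16. Lrg1 (1.12) and Glycam1 (3.76) passed the same test but were not called in HEC. Their capillary differences were -0.91 and -3.69. Of all genes in this paragraph, Ltbp1, Islr, Gucy1a1, Rgs16, Lrg1 and Glycam1 did not pass without peripheral capillary arrays 1 and 2 (adjusted p = 0.263, 0.157, 0.113, 0.254, 0.0735 and 0.199).

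Among lower genes the same test gave -2.29 for Slc7a6 (adjusted p = 2.09e-05), -2.17 for Itih5, -2.25 for F8, -1.71 for Pf4, -2.42 for Pdlim3, -1.72 for Mme and -1.92 for Cldn13. It gave -1.75 for Ly6i, -1.61 for Chrm3, -1.42 for Emp2, -1.11 for Ecm2 and -1.54 for Necab2. Scgb3a1, which was not called in HEC, gave -2.80 with a capillary difference of 3.11. Mme, Chrm3, Emp2 and Scgb3a1 did not pass without those 2 arrays (adjusted p = 0.149, 0.218, 0.081 and 0.122).

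Double-positive cells differed from MAdCAM1+ cells within mesenteric HEC by -1.65 for Myof, -1.39 for Cytl1, -1.29 for Fbln2 and -1.17 for Tacr1.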

How the results depend on the processing

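The count of 537 genes for mesenteric against peripheral HEC was 570 with a replicate block (494 genes shared), 1199 with array weights, whose estimation did not converge, and 208 without mesenteric arrays 2 and 4. It was 85 with a minimum difference of 1, and 285 to 473 when single arrays were left out. Without mesenteric arrays 1 and 3 it was 379. The alternatives on arrays 1 and 3 against 2 and 4 were chosen after seeing the data. The share of higher genes among calls was 26.8%, and 20.5% to 36.5% over the alternatives. Leaving out single arrays gave 60 to 169 genes for the double-positive gate against peripheral HEC and 138 to 356 for the MAdCAM1+ gate. The gates differed in 2 genes with the replicate block, 7 after a range filter and 3 to 17 without single arrays. The capillary comparison gave 124 genes after a second quantile normalization, 4 without peripheral capillary arrays 1 and 2 and 15 to 61 without single arrays. The test of HEC against capillary difference gave 46 genes without those 2 arrays and 35 to 87 without single arrays. Peyer's patch against mesenteric HEC gave 153 genes with the block and 98 to 946 without single arrays. Of 94 named genes that were called, 49 kept their call in every alternative run for them and 45 lost it in at least 1. Among the 2275 values recomputed for single genes, none turned its direction where the gene was called in the main fit or in that alternative. A turn in a gene called in neither was not counted. The causes of these shifts were not tested. Levels near background cannot be recognised in centred values.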
